A study of Zea mays and Triticum urartu with 3 samples.

Results

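The genes described here are annotated maize genes that the input library listed at an FPKM of 0 and that were looked up in RNA precipitated with CENH3. FPKM is the number of fragments scaled to transcript length and to the size of the library. A gene was a member when its Zm00001d identifier stood in the tables of both maize libraries, it lay on chromosomes 1 to 10, its input FPKM was 0 and no other input locus above 0 overlapped it. Of 25564 annotated genes listed once in both tables, 20477 (80.1%) were at 0 in input, 584 of these were removed for an overlapping input locus, and 19893 (77.8%) remained. The members were split by whether the RIP FPKM was 0 or above 0, and by whether at least 5 fragments stood behind it. Membership and split therefore come from the measured values themselves. Counts of these classes are a description, and span, position and spacing along the chromosome are the properties that the choice did not use.

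The B73 RIP library held RNA from young leaves of the maize inbred line B73, precipitated with an anti-CENH3 antibody. The B73 input library came from the same line and tissue, and its labels name no antibody, although the extraction text is shared by both samples. Each group was 1 library, so no value below has a replicate check and no p-value was computed. A wheat library of the series, TMU38, was not used here.

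CENH3 is the variant of histone H3 that replaces the canonical histone in centromeric nucleosomes and marks where the kinetochore assembles. RNA immunoprecipitation (RIP) recovers RNA that stays with a protein or chromatin fraction when an antibody pulls it down, and the input is the RNA before that step. Maize centromeres consist of the satellite repeat CentC and centromeric retrotransposons, with few genes among them, while most maize genes lie towards the chromosome arms.

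There were 45374 loci listed for RIP and 46011 for input, in both cases annotated genes plus loci assembled from the reads of that library. The number of fragments behind an FPKM was derived from the deposited confidence limits and is called implied fragments. Summed over its loci, RIP held 472295 of them. Input held 744101, or 374813 without its most abundant locus, which alone took 49.6%. The leaf label could be checked only by chloroplast loci, because the files do not pair maize identifiers with gene names. The input table listed 54 chloroplast loci, 50 of them above 0, and the RIP table listed 0. Over the genes present in both tables, RIP held 103586 implied fragments and input 34107, a ratio of 3.04. Genes listed in both tables thus held more fragments in RIP than in input, and genes listed in 1 table only were not summed. A gene at 0 in input was not shown to be untranscribed: a count of 0 allows up to 3 fragments, which by that ratio correspond to 9.11 RIP fragments.

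Most members were also listed at 0 in RIP under their own identifiers. The RIP FPKM was above 0 at 7070 of the 19893 genes, or 35.5% (95% Wilson interval 34.9 to 36.2), and was 0 at 12823. Over all 25564 genes the share above 0 was 44.5%, but the membership rule used the input value, so nothing is read from that gap. At least 5 implied fragments were found at 1051 genes, or 5.28% (4.98 to 5.60), against 11.2% over all genes. These intervals treat genes as independent draws and cover counting error in these libraries only. An FPKM of 1 or more was reached by 61 members (0.307%), with 0.911% over all genes.

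Signal at the members was mostly a few fragments. The 7070 genes above 0 had a median of 2 implied fragments, quartiles of 1 and 3, and a maximum of 61.0. Their median FPKM was 0.0428, with quartiles of 0.0216 and 0.0926. The lower confidence limit was above 0 at 1108 of them. Together the members held 18655 implied fragments, 3.95% of those at all RIP loci, and the 1051 genes with 5 or more held 42.5% of that sum. Per kilobase of gene span, the sum came to 0.508 fragments.

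**Figure D1:**
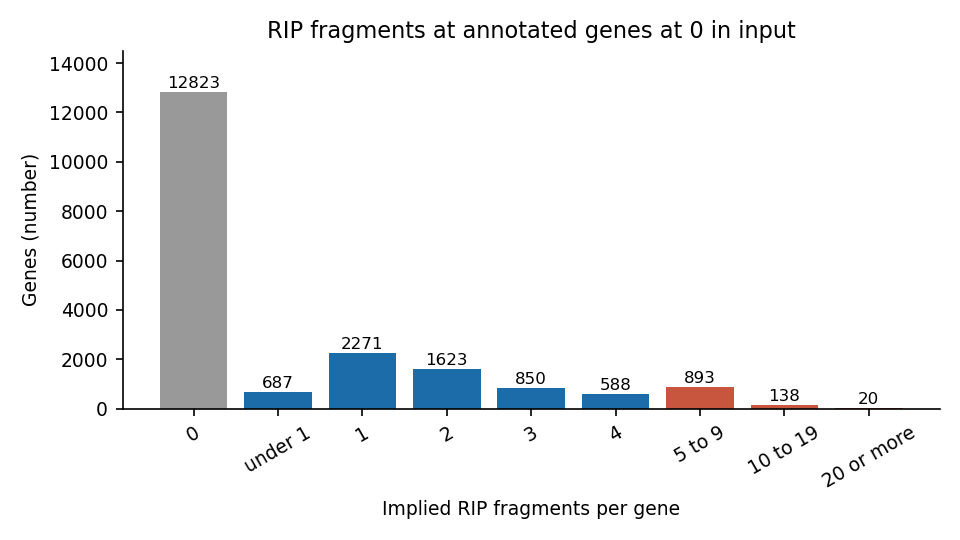
Number of members (vertical axis) by implied RIP fragments per gene (horizontal axis), grey for 0, blue for fewer than 5 and red for 5 or more, with the number of genes above each bar. Most of the 19893 genes, 12823, had none, 687 had a value under 1, 893 had 5 to 9, 138 had 10 to 19 and 20 had 20 or more.

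Genes nearest the boundary of 5 fragments were alike in level and span. There were 562 members with 4 to under 5 implied fragments, with a median FPKM of 0.0554 and a median span of 1743 bp. The 344 members with 5 to 5.5 had a median FPKM of 0.0565 and a median span of 1644 bp. The highest value below the boundary was 4.86 and 335 members stood at 5 within rounding, so the split is a cut through a continuous range. An exact Poisson interval for 5 fragments runs from 1.62 to 11.7.

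FPKM and fragment number ordered the members differently. The median FPKM was 0.0291 at genes with 1 implied fragment, 0.0430 with 2, 0.0669 with 5 to 9, 0.128 with 10 to 19 and 1.20 with 20 or more. Of the 61 members with FPKM of at least 1, only 24 had 5 or more fragments, 39 spanned 500 bp or less, and the median was 3 fragments. The value of 1 fragment depended on span: its median FPKM was 0.402 in genes of up to 300 bp and 0.0160 in genes of 1001 to 2000 bp. A high FPKM at a short member therefore often rested on very few fragments.

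The members with the most RIP fragments show what the strongest signals looked like, each being at 0 in input. Zm00001d035659 on chromosome 6 (6:39829333-39830358, span 1026 bp) had 61.0 implied fragments (exact Poisson interval 46.7 to 78.4) and a RIP FPKM of 1.62, with deposited limits of 1.20 and 2.03. A gene at 7:179964493-179965584 had 59.0 fragments (44.9 to 76.1) but an FPKM of only 0.568. Zm00001d004256 on chromosome 2 (2:97279244-97293487, span 14244 bp), which the study describes as an expressed gene of a centromeric region, had 47.0 fragments (34.5 to 62.5) and an FPKM of 3.35, with limits of 2.38 and 4.33. The study also reports its reads as enriched in RIP, from BLAST matches set against input, which is another measure than the FPKM used here. These 3 genes stood in different settings. The first lay 13.5 kb and the third 361 kb from the nearest input locus above 0, and 14 and 2 annotated genes, respectively, stood within 0.5 Mb of them.

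A further pair of members held 40 or more fragments. The gene at 6:46130267-46133225 had 44.0 fragments and an FPKM of 1.59, and the gene at 3:17307142-17312267 had 40.5 fragments and an FPKM of 3.68, the highest among the 12 genes with the most fragments. The other 7 of these 12 held 26.0 to 39.0 fragments. Their FPKM started from 0.239, at 3:166637966-166639387, which had 29.0 fragments. Of the 12 genes, 4 were on chromosome 3 and none on chromosomes 1, 8, 9 or 10, 2 lay in the outer 10 Mb of a chromosome, and 2, both on chromosome 2, lay in a gene-poor window defined further on.

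**Figure D2:**
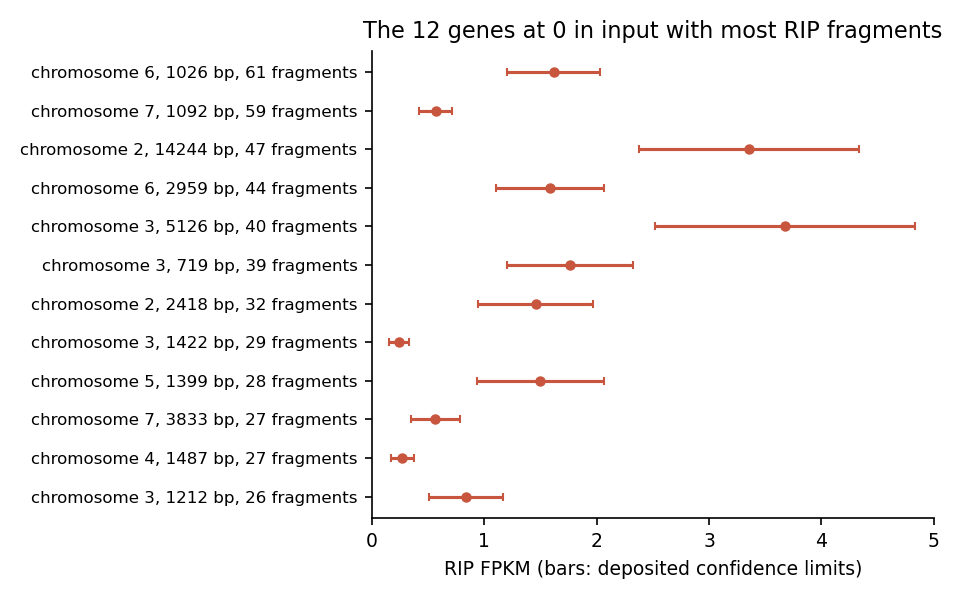
RIP FPKM (horizontal axis) of the 12 members with the most implied fragments, one gene a line with its chromosome, span and fragments, points for the value and bars for the deposited confidence limits. FPKM ran from 0.239 to 3.68 without following the number of fragments, and each of these genes was at 0 in input.

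Ranking by FPKM instead, among members of at least 300 bp, brought up a partly different set. The gene at 3:17307142-17312267 (FPKM 3.68) and Zm00001d004256 (FPKM 3.35) were high in both rankings. The highest was a 322-bp gene at 2:102764134-102764455 with an FPKM of 5.20, which rested on 1.00 fragment and had limits of 0 and 15.6. The next, at 7:52786893-52787206, had 3.87 on 2.00 fragments. A gene of 456 bp at 7:123664001-123664456 also combined both measures, with an FPKM of 3.13 (limits 1.90 and 4.36) and 26.0 fragments. The highest FPKM of any member, 21.6 (limits 10.4 and 32.9), belonged to a 234-bp gene at 3:76692364-76692597 with 14.9 fragments. It was also the shortest of the 1051 genes with 5 or more.

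The study names 3 further genes, and none of them was a member. Zm00001d030471 was listed in input only, and Zm00001d004248 and Zm00001d007960 stood in neither table under their identifiers. Absence under an identifier does not mean that no RIP fragments lay there. A RIP locus of another name can cover the place, as described further on. Within 2.5 Mb on each side of Zm00001d004256 there were 18 members, itself included, of which 4 were above 0 in RIP and 2 had 5 or more fragments, with 62.5 fragments in all. Within the same distance of Zm00001d030471 there were 25 members, 4 above 0 and 0 with 5 or more, with 5.19 fragments in all. Most members around both loci were at 0 in RIP as well.

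Genes with RIP fragments were longer than those without. The median span was 829 bp (quartiles 360 and 1819) at RIP FPKM 0 and 1503 bp (871 and 2702) above 0. With 5 or more fragments it was 1788 bp (1143 and 2914), with a range from 234 to 20922 bp. The quartile ranges of the 3 classes overlapped. Genes of 300 bp or less made up 21.4% of those at RIP 0, 1.16% of those above 0 and 0.190% of those with 5 or more, the last being 2 genes. None of the 1939 members of 100 bp or less was above 0, and the shortest that was spanned 177 bp. Genes that short have little room for a fragment, so their 0 is not read as absence of RNA. Among members of at least 300 bp, the median span was 1518 bp above 0 and 1144 bp at RIP 0.

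Within span classes, the share with RIP fragments climbed up to about 1 kb and then levelled off. It was 2.90% at up to 300 bp, 24.0% at 301 to 500 bp, 35.0% at 501 to 1000 bp and 45.7% at 1001 to 2000 bp. Longer genes gave 48.0% at 2001 to 5000 bp, 49.5% at 5001 to 10000 bp and 45.7% at 10001 to 20000 bp. The share dropped to 21.4% above 20000 bp. The share with 5 or more fragments peaked at 8.92% at 2001 to 5000 bp and was 1.93% at 10001 to 20000 bp.

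The longest members were mostly at 0. Of 70 genes over 20000 bp, 15 were above 0 and 1 reached 5 fragments, with 18.0. The longest at RIP 0 were Zm00001d005011 on chromosome 2 (2:153601632-153727710, 126079 bp) and Zm00001d035566 on chromosome 6 (6:33669439-33787325, 117887 bp). Spans over 80 kb at 0 in both libraries were also seen at 7:91529791-91632306, 3:166290735-166380382 and 8:30579465-30662352. The longest gene above 0 spanned 73441 bp. Span includes introns, and exon length was not used here. Fragments per kilobase of span fell from 1.13 at 301 to 500 bp and 1.11 at 501 to 1000 bp to 0.459 at 2001 to 5000 bp and 0.0155 above 20000 bp. As a description over the 7070 genes above 0, which share 1 library, Spearman's rho of span and fragments was 0.0860, and over all 19893 members it was 0.285.

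Genes above 0 in input give the same measurement where the input held RNA. Of 5087 such genes (19.9% of the 25564), 82.1% were above 0 in RIP and 35.5% had 5 or more fragments, with a median span of 2155 bp. Compared at spans of 1 to 5 kb, RIP was above 0 at 46.7% of the 9306 members and at 84.2% of the 3377 genes above 0 in input. With 5 or more fragments, the shares were 8.34% and 36.9%. The shares at members were lower in each of the 8 span classes, for example 21.4% against 88.9% above 0 over 20000 bp. Both sets were chosen by their input value, so these shares are side by side as a description and nothing is read from the gap.

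**Figure D3:**
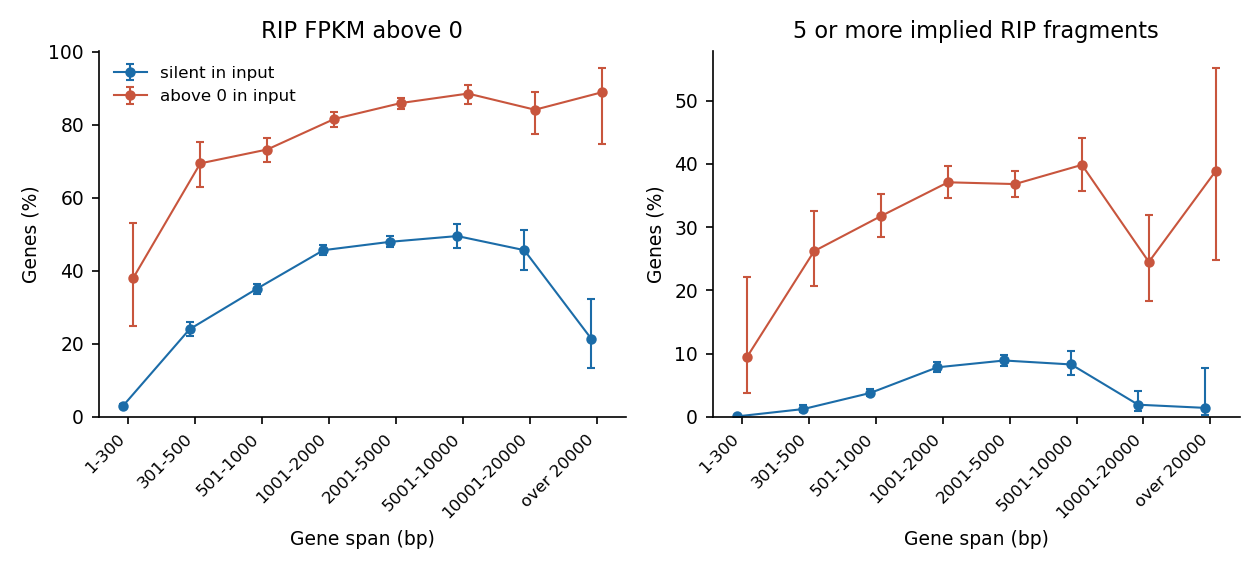
Share of genes (vertical axes, percent) with RIP FPKM above 0 (left) and with 5 or more implied RIP fragments (right) by gene span in bp, blue for members and red for annotated genes above 0 in input, with 95% Wilson intervals over genes. Shares of members were lower in every span class, for example 48.0% against 85.9% above 0 at 2001 to 5000 bp.

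The same shares at the lowest step above 0 in input are given in the same way, as a description. Among 581 genes with exactly 1 implied input fragment, 448 (77.1%, interval 73.5 to 80.3) were above 0 in RIP, and 138 (23.8%, 20.5 to 27.4) had 5 or more fragments. At spans of 1 to 5 kb these shares were 82.1% and 27.4%. Of the 584 genes removed for an overlapping input locus, 121 (20.7%, 17.6 to 24.2) were above 0, or 37.0% at spans of 1 to 5 kb, and their median span was 581 bp. In the reverse comparison, of 13507 genes at 0 in RIP and not overlapped by another RIP locus above 0, 849 (6.29%) were above 0 in input and 205 (1.52%) had 5 or more input fragments. Implied fragments over the genes in both tables differed by the ratio of 3.04 given before. The study reports more read pairs sequenced for RIP than for input. The ratio also counts the members, which held 18655 implied fragments in RIP and 0 in input by choice, so it does not measure depth alone. The part of this ratio in the unequal shares was not tested.

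RIP fragments at the members were found on every chromosome at similar rates. The share above 0 ran from 32.9% on chromosome 4 to 37.6% on chromosome 7, and the share with 5 or more from 4.46% on chromosome 4 to 6.34% on chromosome 3. Per kilobase of span the members held 0.458 to 0.575 fragments by chromosome.

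Pooled over the chromosomes, the share was lowest near the middle. With each chromosome divided into 10 equal segments and these pooled, 38.1% (36.3 to 39.9) of the 2775 members in the first segment were above 0, and 28.4% (25.9 to 31.0) of the 1184 in the fifth. The last segment, with 3317 members, had 36.5%. Genes with 5 or more fragments made up 6.02% (5.19 to 6.97) in the first segment, 3.97% (3 to 5.24) in the fifth and 3.76% in the sixth. The dip was there at matched span, since among genes of 1 to 5 kb the share above 0 was 49.6% in the first segment, 37.3% in the fifth and 47.8% in the last. Chromosome by chromosome, the fifth segment had a lower share above 0 than the first on 9 of 10 and the lowest of all segments on 4, and for 5 or more fragments it was lower than the first on 8. Chromosome 8 went the other way, with 37.1% above 0 in the fifth segment and 34.5% in the first, and with 8.87% and 5.42% at 5 or more fragments. Segments of different chromosomes do not line up on the centromeres.

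**Figure D4:**
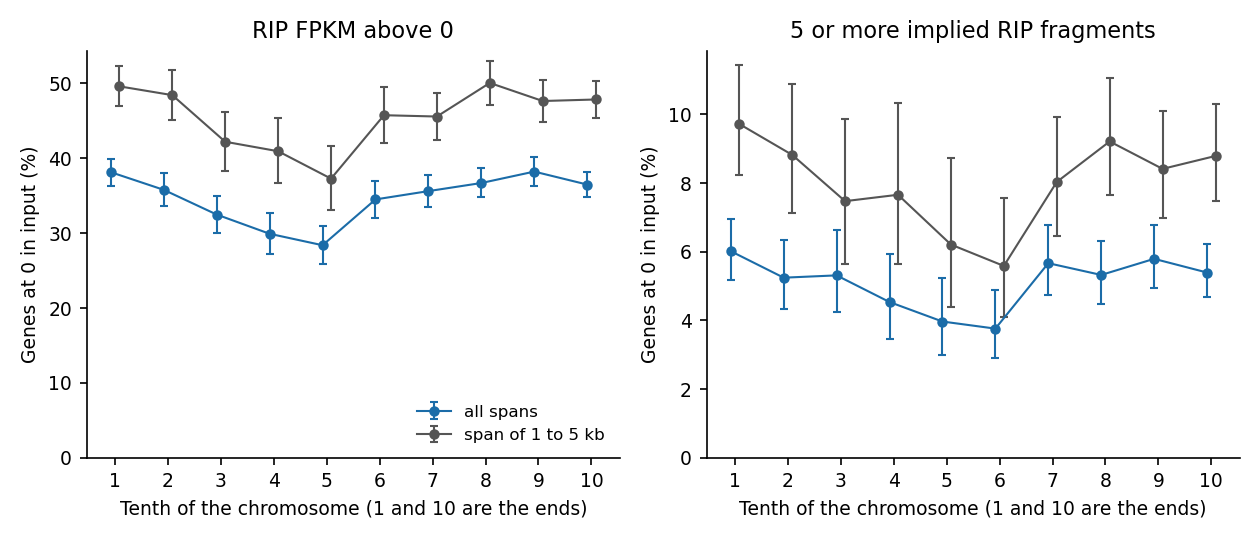
Share of members (vertical axes, percent) with RIP FPKM above 0 (left) and with 5 or more implied RIP fragments (right) by segment of the chromosome (10 equal segments, 1 and 10 at the ends), pooled over 10 chromosomes, blue for all spans and grey for spans of 1 to 5 kb, with 95% Wilson intervals over genes. The share above 0 was lowest in the fifth, at 28.4% for all spans and 37.3% for 1 to 5 kb.

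Zones at the ends and in gene-poor regions gave the same order for the share above 0. In the outer 10 Mb of the chromosomes lay 3124 members, of which 1228 (39.3%, 37.6 to 41.0) were above 0 and 194 (6.21%, 5.42 to 7.11) had 5 or more fragments. The 10-Mb window with the fewest annotated genes on each chromosome, outside the outer 10 Mb, served as a stand-in for the centromere region. These windows held 275 members, of which 84 (30.5%, 25.4 to 36.2) were above 0 and 13 (4.73%, 2.78 to 7.92) had 5 or more. The remaining 16494 members had 34.9% above 0 and 5.12% with 5 or more. The small number of genes in the windows left their interval overlapping the remainder's values.

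At spans of 1 to 5 kb the order was kept, with 50.9% above 0 in the outer zone, 46.0% elsewhere and 40.2% of 107 genes in the windows. Read from the other side, the outer zone held 18.5% (16.2 to 20.9) of the genes with 5 or more fragments, 17.2% of those with fewer and 14.8% (14.2 to 15.4) of those at RIP 0. The windows held 1.24% (0.724 to 2.10), 1.18% and 1.49% (1.29 to 1.71). Members with RIP fragments were thus somewhat more often near chromosome ends than members at RIP 0. This was not particular to them: of the annotated genes above 0 in input, 19.2% lay in the outer zone and 0.963% in the windows. The window share of members with RIP fragments could not be told from that of members at RIP 0 at this number of genes. Its order turned, to 1.71% at 5 or more fragments and 1.44% at RIP 0, when overlapping RIP loci were added. The 61 members with an FPKM of 1 or more were placed otherwise, 7 in the outer zone and 6 in the windows. Over all members these zones held 15.7% and 1.38%, and 39 of the 61 spanned 500 bp or less.

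In the windows lay few of the members with many fragments, though at larger shares than the 1.38% of all members. Of 158 members with 10 or more fragments, 5 (3.16%, 1.36 to 7.19) lay in the windows and 29 (18.4%) in the outer zone. Of 20 members with 20 or more, on 6 chromosomes, 2 (10%, 2.79 to 30.1) lay in the windows and 5 (25%) in the outer zone. The first interval spans the 1.49% of genes at RIP 0, and the second lies above it but rests on 2 genes, both in the window of chromosome 2.

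That window, with 35 members, had 10 above 0 and 3 with 5 or more fragments, and it held 102 of the 285 fragments of all windows. Beside Zm00001d004256, the genes were at 2:100168263-100170680, with 32.2 fragments and an FPKM of 1.46 (limits 0.943 and 1.97), and at 2:98414432-98416441, with 13.5 fragments and an FPKM of 1.21. In the other windows, the members with most fragments were the 234-bp gene of chromosome 3 already given and a gene at 10:49971629-49972114 with 10.0 fragments and an FPKM of 0.945. Over all windows the members held 0.539 fragments per kilobase of span, and 0.463 without Zm00001d004256, so 1 gene decided whether that density lay above or below the 0.508 of all members.

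The density of genes around a member went with the share above 0 only loosely. Members with up to 5 other annotated genes within 0.5 Mb on each side were above 0 in 31.1% of cases, against 37.8% with 21 to 30 genes and 37.7% with 31 to 40. With more than 40 genes the share was 32.6%, in genes of a shorter median span, 830 bp. Distance to the nearest input locus above 0 gave no order, since the share stayed between 34.6% and 37.2% over the distance classes. Median distances to such a locus were also close, 28.3 kb for genes with 5 or more fragments and 30.6 kb for genes at RIP 0. Members with and without RIP fragments were thus about equally close to RNA seen in input.

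Distance to strong RIP loci gave no clear order either. Members within 1 kb of a RIP locus with 10 or more fragments were above 0 in 40.3% of cases (35.2 to 45.6), and the farther classes ran from 34.9% to 36.9%, within or just under that interval. For 5 or more fragments, the share was 5.37% at that range and 5.15% to 6.17% farther away. The nearest annotated gene of any kind was farther away for members with 5 or more fragments, at a median of 10.3 kb, than for members at RIP 0, at 5.26 kb.

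Members with 5 or more fragments had another such member nearby slightly more often than members at RIP 0 had one. The nearest annotated gene was a member with 5 or more fragments for 42 of the 1051 such genes (4.0%, 2.97 to 5.36), for 3.31% of genes with fewer and for 321 of the 12823 at RIP 0 (2.5%, 2.25 to 2.79). Another member with 5 or more fragments lay within 100 kb of 147 of the 1051 (14.0%, 12 to 16.2) and of 1507 of those at RIP 0 (11.8%, 11.2 to 12.3). The intervals of this last comparison overlap, and neither comparison was made at matched span. Over all members the shares were 2.83% for the nearest gene and 12.2% within 100 kb. Adjacent genes can share reads or an unannotated transcript, which was not tested, so neighbouring pairs are not independent observations.

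For any RIP signal the same was seen over more genes. Where the nearest gene was itself a member, it was above 0 for 1614 of 4315 genes above 0 (37.4%, 36.0 to 38.9) and for 2450 of 8342 genes at RIP 0 (29.4%, 28.4 to 30.4). With both genes at spans of 1 to 5 kb, the shares were 48.1% (45.4 to 50.8) and 39.3% (36.9 to 41.7). The gap was thus there at matched span.

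Genes with 5 or more fragments were 5.28% of the members, so most stand without such a neighbour unless they are strongly grouped. The counts of runs are therefore a description, and no spacing trait is read from them. Taking annotated genes in order, 973 of these genes had no such neighbour, 36 pairs were adjacent and 2 runs reached 3 genes. One of the runs lay on chromosome 6, at 6:21256645-21260184, 6:21261630-21262670 and 6:21265695-21270357, with 5, 7 and 5 fragments. Genes with any RIP signal include these and were 35.5% of the members, so longer runs follow from the size of that class. There were 929 pairs, 207 runs of 3 and up to 7 genes in 4 runs, beside 4229 single genes. One run of 7 spanned positions 294501103 to 294727617 of chromosome 1.

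With 1051 genes of 5 or more fragments over 2082 bins of 1 Mb that held members, most bins must hold 0 or 1. The counts are therefore a description, and nothing about the regions is read from them. Of these bins, 1295 had 0 such genes, 583 had 1, 154 had 2, 42 had 3, 6 had 4 and 2 had 5. The fullest bins were 10 to 11 Mb on chromosome 2, with 15 members, 8 of them above 0 and 39.0 fragments, and 12 to 13 Mb on chromosome 9, with 12 members, 9 above 0 and 38.0 fragments. The 5 genes with 5 or more fragments in each of these bins were all weak, with 5 to 8 fragments each. Their FPKM was 0.0451 to 0.248 on chromosome 2 and 0.0189 to 0.0798 on chromosome 9. Among 907 bins with at least 10 members, the share above 0 had a median of 36.4% and ran from 0% to 84.6%. The upper end was 11 of 13 genes at 34 to 35 Mb of chromosome 2. The lower end was 0 of 10 genes in each of 3 bins, at 72 to 73 Mb of chromosome 2, 58 to 59 Mb of chromosome 6 and 64 to 65 Mb of chromosome 8.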

How the data were processed

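RNA of B73 young leaves was measured in 2 libraries, RIP and input, with 1 library per group, grouped by sample title. The authors deposited FPKM per locus with its confidence limits. The submitters' processing notes name the build B73 RefGen_v4 and the tools CASAVA, TopHat2 2.0.12 and Cufflinks, whose version is not given in the sources used here. No source used here says whether the same filters were applied to both tables. Assembled loci of the table deposited for the RIP sample carry the prefix B73-RAC, not the sample's title, and the table was taken as RIP because it was deposited under that sample. A gene not listed in one table was left out, as were 7 identifiers at more than 1 locus.

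Implied fragments were (2 × FPKM/(upper limit − FPKM)) squared, reading the limits as 2 SDs of a Poisson count, rounded to 2 decimals before the minimum of 5 was applied. The values were whole within 0.02 at 83.7% of the members above 0. They count fragments at listed loci, not reads sequenced. Starts were counted from 1, since those in the tables count from 0. Chromosome length was the largest listed end. Gene-poor windows were found in 1-Mb steps from annotated genes listed in either table.

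No test was run, because loci are not replicates and the rule used both values. Intervals are 95% Wilson for shares and exact Poisson for fragments, and cover counting error only. Fragments carry no molecular identifiers. No fold was taken against an input at 0. Named genes were the 12 members with the most fragments, the 6 highest in FPKM of at least 300 bp, the 5 longest at RIP 0, the genes of the fullest 1-Mb bins, and those the study names. Genes shown for the gene-poor windows, the runs, the lowest and highest bins, the highest FPKM at any span and the overlapping loci in the closing section were chosen after their values were seen. Members, lists and tests were chosen with earlier results of these data known. Overlap, span, status, minimum, window and distance settings were varied. Of the 19893 identifiers, 0 were found in the available RefSeq gene table, which is of a later assembly, so at most 2 identifiers are printed per direction, apart from those the study names, and other genes are given by position. Scripts used Python 3.11.15, numpy 2.4.6, pandas 2.3.3, scipy 1.17.1 and matplotlib 3.10.9 and were tested on simulated data.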

Additional observations from a re-analysis of the deposited data

Results flagged for a closer look

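Signal was also found at places that the comparisons left out. Of 4071 genes at 0 in input whose identifier the RIP table does not list, 2524 (62.0%) lay under a RIP locus above 0 with another name, and 403 (9.90%) under one with 5 or more implied fragments. Of the 403, 394 were covered over at least 0.5 of their length. The median span of the 4071 genes was 3014 bp, against 1080 bp for the members. The highest was a 71-bp gene at 1:8203731-8203801, under a RIP locus with 583 fragments, followed by 1:305155510-305156325 with 58.4 and 7:177288787-177289404 with 52.1.

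Among the members at RIP FPKM 0, 205 were overlapped by another RIP locus above 0, and at 37 of them that locus had 5 or more fragments. The highest, at 5:3238420-3241075, lay under a locus with 225 fragments, and the next, at 1:305132992-305134301, under one with 57.4. Whether these fragments belong to the genes or to transcripts that cross them was not tested.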

How the results depend on the processing

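Of 68 values recomputed under other settings, 45 moved by less than their interval and 23 moved further. With overlapping RIP loci added, the window share was higher at 5 or more fragments (1.71%) than at RIP 0 (1.44%), against 1.24% and 1.49%, so that order turned. The share of members above 0 in RIP (35.5%) was 36.6% with overlapping RIP loci added, 40.9% for spans of at least 300 bp, 8.17% at an FPKM of 0.1 or more and 0.307% at 1 or more. The share with 5 or more fragments (5.28%) was 6.13% for spans of at least 300 bp, 4.45% without rounding of the implied fragments (886 genes, an alternative chosen after seeing the data), and 12.3%, 0.794% and 0.101% with minimums of 3, 10 and 20. The median span at RIP 0 (829 bp) was 1144 bp for spans of at least 300 bp, where that above 0 was 1518 bp.

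For genes at RIP 0, the share in the outer zone (14.8%) was 14.2% when genes with an input locus within 1000 bp were also removed. With 20-Mb zones the outer share was 28.2% at RIP 0 and 32.4% at 5 or more fragments, and the window share 4.09% and 2.76%. The nearest gene had the minimum of fragments for 7.71% (3) and 0.666% (10) of genes that themselves had 5 or more, and for 6.16% and 0.367% of genes at RIP 0. The shares with a neighbour of 5 or more fragments were 7.90% and 6.63% within 50 kb, and 47.3% and 43.5% within 500 kb. At each of these other minimums and distances the intervals of both classes overlap. Shifts with a minimum, zone or distance follow from its construction. For the others the cause was not tested.

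No paired analysis was possible because each group had 1 library and the labels carry no replicate numbers. For the same reason no replicate was left out, and no pseudocount was needed. Depth limits the reading of a listed 0, and the gene-poor windows held only 13 genes with 5 or more fragments.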

Other observations

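Among the 584 genes removed because another input locus above 0 overlapped them, the highest RIP FPKM was 6.73 (limits 3.26 and 10.2, 15.0 implied fragments) at 6:36091583-36092239. This gene lay inside an assembled input locus of 20227 bp (6:36080326-36100552) with an input FPKM of 7.82, so the input listed it at 0 under its own identifier while its place was above 0.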
